A study of Mus musculus with 6 samples.

Results

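Ephx2 and Ptgs2 encode 2 enzymes that act on arachidonic acid and its products, and each was carried by 2 spots of the array, so the pair took up 4 of 32448 spots and 2 of 11138 named genes. The members were the spots that the probe table assigns to either symbol. The pair had been picked with earlier results of these arrays known, so the values of both genes at 1 week, at 6 weeks and between the times are given as a description, with no test. Mouse endothelial cells were sorted from smoke-exposed and control animals, and RNA of both was hybridised to the same array in 2 channels. Smoke for 1 week was set against control, of unstated age, on 3 arrays, with replicate 1 labelled as a dye reversal. No label says which array replicate 1 reverses, so it may repeat another 1-week array. After 6 weeks of smoke, RNA was compared with that of 1-week control on 2 arrays, the second being the dye reversal of the first, and with 6-week control on 1 array. The tobacco smoke is environmental per the series title. The labels used here give no tissue, strain, age, sorting marker, dose or number of pooled animals. Nothing says that arrays came from separate animals, so errors measure only the spread between arrays, and precision is set by how few there are.

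Arachidonic acid, once freed from membranes by phospholipases, enters 3 enzyme routes. Cyclooxygenases turn it into prostaglandins, prostacyclin and thromboxane, lipoxygenases into leukotrienes and related acids, and cytochromes P450 into epoxyeicosatrienoic acids, which relax vessels. Soluble epoxide hydrolase, the product of Ephx2, ends the action of these epoxides by converting them to diols. Cyclooxygenase-2, the product of Ptgs2, is the inducible cyclooxygenase and a main source of vascular prostacyclin. Ephx2 is abundant in liver and kidney and is also made by endothelium.

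Each value is a log2 ratio of the 2 channels, so 1 unit is a 2-fold difference. A positive ratio is read as likely higher after smoke, because smoke is channel 1 on all 6 arrays and is named first in the titles, but the direction and any turning of the dye-reversed arrays were not stated. Values are given with the sign of the deposited table. Over all spots, array pairs correlated between r = -0.03 and r = 0.122, where spots are not independent replicates. The 6-week array against 1-week control and its own dye reversal correlated at r = -0.019. A value so near 0 does not settle the sign of the reversal, and the averaged pair showed no agreement over all spots. Ratios carry no level, so whether endothelial or other marker genes were present at all could not be checked, and fewer cells of a type cannot be told apart from less RNA per cell.

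Ephx2 was higher in the smoke channel, as read here, on every array. Its first spot stood at 1.78 on the 1-week dye reversal, 1.10 on 1-week replicate 2 and 2.02 on 1-week replicate 3. The second spot on the same arrays stood at 1.84, 1.42 and 1.97. At 1 week the spots therefore differed from each other by at most 0.32, and replicate 2 was the lowest array for both.

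At 6 weeks against 1-week control, the first Ephx2 spot was at 2.58 and the second at 2.45. On the dye reversal of that array they were at 1.82 and 1.81. On the array against 6-week control the first spot was at 2.39 and the second at 0.00, a difference of 2.39 where the median over the 10180 genes with 2 spots was 0.31. Only 0.756% of those genes had spots at least as far apart on that array. Of the 12 spot values of Ephx2, 11 lay above 1 and the remaining one was at a fold of exactly 1.00.

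**Figure D1:**
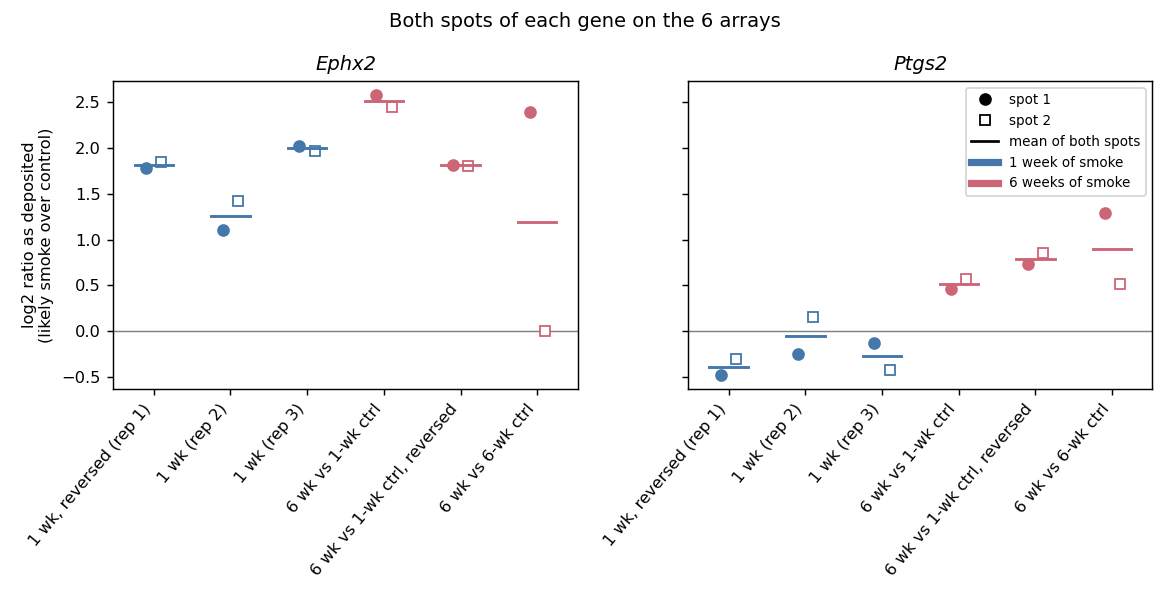
Log2 ratio as deposited of each spot of Ephx2 (left) and Ptgs2 (right) on the 6 arrays, with circles for spot 1, open squares for spot 2, bars for their mean, blue for 1 week and red for 6 weeks of smoke. The Ephx2 spots lie close together between 1.10 and 2.58 except spot 2 at 0.00 on the array against 6-week control, and the Ptgs2 spots lie at or below 0.15 at 1 week and at or above 0.46 at 6 weeks.

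The single low Ephx2 value sat at a point where the deposited table had a spike. The deposited ratios are folds in whole hundredths, and on the array against 6-week control 1244 of the 24344 spots of named genes were at 1.00, beside 287 at 1 hundredth more and 263 at 1 hundredth less. Every array had such an excess at 1.00, with the smallest count, 535, on the 6-week array against 1-week control. On the array against 6-week control, 642 genes with 2 spots had exactly 1 of them at 1.00. Their other spot had a median size of 0.35, and in 2 of these genes, Ephx2 included, it was as far out as 2.39. What a fold of 1.00 stands for is not stated in the sources used here, and its part in the lower Ephx2 mean on that array was not tested beyond leaving such values out.

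**Figure D2:**
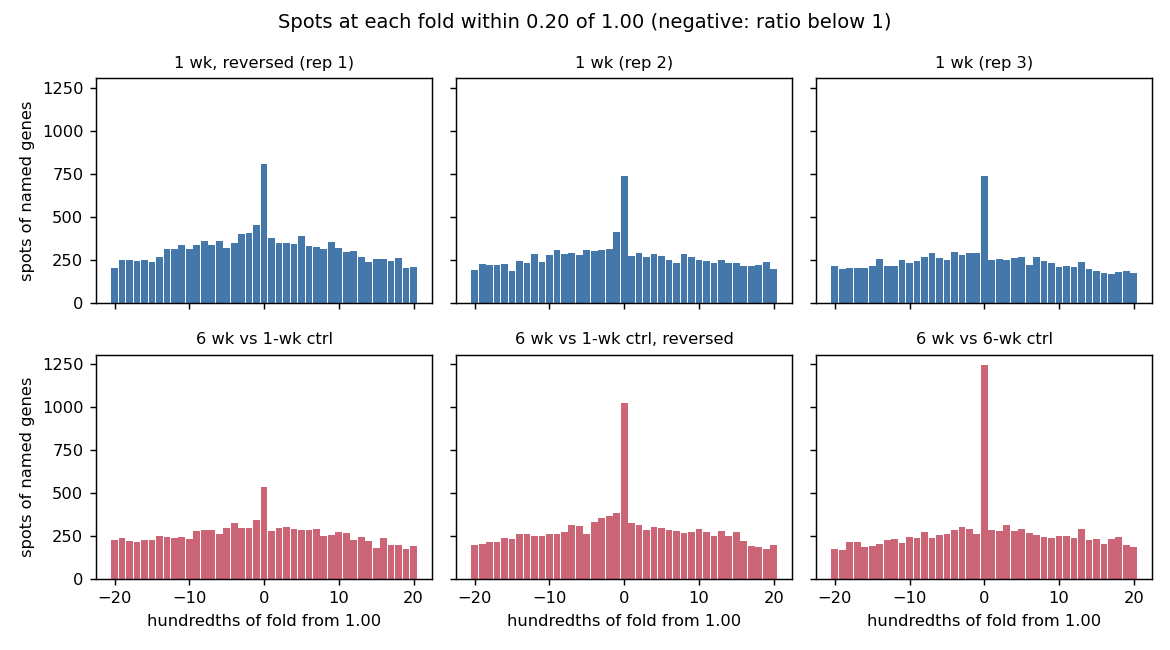
Number of spots of named genes at each fold within 20 hundredths of 1.00, one panel per array, with ratios below 1 to the left of 0 and arrays of 1 week in blue and of 6 weeks in red. The bar at exactly 1.00 is above its neighbours on all 6 arrays and reaches 1244 spots on the array against 6-week control, where neighbouring bars hold 287 and 263.

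Averaged over both spots, Ephx2 stood at 1.81, 1.26 and 1.996 on the 1-week dye reversal and 1-week replicates 2 and 3. It stood at 2.52 on the 6-week array against 1-week control, 1.81 on its dye reversal and 1.19 on the array against 6-week control. The highest and the lowest array were both 6-week arrays, so the values of the 2 times overlapped fully. The mean was 1.69 ± 0.26 at 1 week (SE, n = 3; 3.23-fold) and 1.68 ± 0.32 at 6 weeks (SE, n = 2, the dye swap averaged as 1 replicate; 3.20-fold). The SE comes from limma's moderated spread, pooled over all 5 replicates. The 2 replicates at 6 weeks differ in control: the swap against 1-week control averaged 2.16, and the array against 6-week control stood at 1.19. The 3 replicates at 1 week count the dye reversal, which may repeat another 1-week array. Among the 11138 named genes, Ephx2 ranked 7 from the highest at 1 week and 12 at 6 weeks, and between 18 and 133 on single arrays.

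A log2 ratio above 1 on all 6 arrays was found for 6 of 19242 features tested (0.0312%), one of which was Ephx2; this pattern was known when the gene was picked. By the lowest of its 6 array values, 1.19, Ephx2 ranked 3 among named genes, after Cpe and Coch.

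The time difference of Ephx2 was -0.01 ± 0.41 (6 weeks minus 1 week, SE), smaller than its error, and its sign changed under many of the alternatives tried. The 2 spots gave opposite signs. The first spot alone gave 0.66 ± 0.37, with means of 1.63 at 1 week and 2.29 at 6 weeks. The second spot alone gave -0.68 ± 0.65, with means of 1.75 and 1.07. With values at a fold of 1.00 treated as missing, an alternative chosen after seeing the data, the 6-week mean of Ephx2 became 2.28 ± 0.26 and the difference 0.59 ± 0.33.

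The size for Ephx2 also rests on the sign of the dye-reversed arrays. All 4 arrays without a reversal label were positive on their own. With the 6-week dye reversal turned, the 6-week mean was 0.77 ± 0.30. With both reversals turned, the 1-week mean was 0.48 ± 0.74 and the 6-week mean 0.77 ± 0.91, both smaller than their errors.

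Ptgs2 was slightly negative at 1 week and positive at 6 weeks. Its first spot stood at -0.48, -0.25 and -0.12 on the 1-week dye reversal and 1-week replicates 2 and 3, and the second at -0.30, 0.15 and -0.42. So 5 of 6 spot values were below 0 at 1 week. At 6 weeks the first spot stood at 0.46 on the array against 1-week control, 0.73 on its dye reversal and 1.29 on the array against 6-week control. The second spot on these arrays stood at 0.58, 0.86 and 0.52. All 6 values were positive, and the lowest, 0.46, was above the highest 1-week spot, 0.15. The spots of Ptgs2 were farthest apart, by 0.77, on the array against 6-week control.

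Averaged over both spots, Ptgs2 stood at -0.39, -0.05 and -0.27 on the 1-week arrays in the same order, a mean of -0.24 ± 0.16 (SE, n = 3). It stood at 0.52, 0.79 and 0.90 on the 6-week arrays, a mean of 0.78 ± 0.20 (SE, n = 2; 1.72-fold). The 1-week mean was only modestly larger in size than its error, and the groups of arrays did not overlap, with a gap of 0.57 between them. The difference of 6 weeks minus 1 week was 1.02 ± 0.25, or 2.02-fold. Its 6-week mean joins the dye swap against 1-week control (0.66) with 1 array against 6-week control (0.90). In the swap, the samples differ in weeks as well as in smoke, so these cannot be told apart there. Of all features tested, 4.39% had all 6-week arrays above all 1-week arrays, and 0.847% were negative on every 1-week array and positive on every 6-week array. Nothing about Ptgs2 is read from those shares, since the gene was picked on these values.

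Among named genes Ptgs2 ranked 144 from the highest at 6 weeks and 158 by the difference, whereas at 1 week it lay at 8876. With the 6-week dye reversal turned, the 6-week mean of Ptgs2 was 0.38 and the difference 0.62. With both reversals turned, the 1-week mean became 0.02 and the difference 0.36.

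The courses of the 2 genes were not compared by a test. The arrays at the 2 times may share 1-week control RNA, which the labels do not settle.

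**Figure D3:**
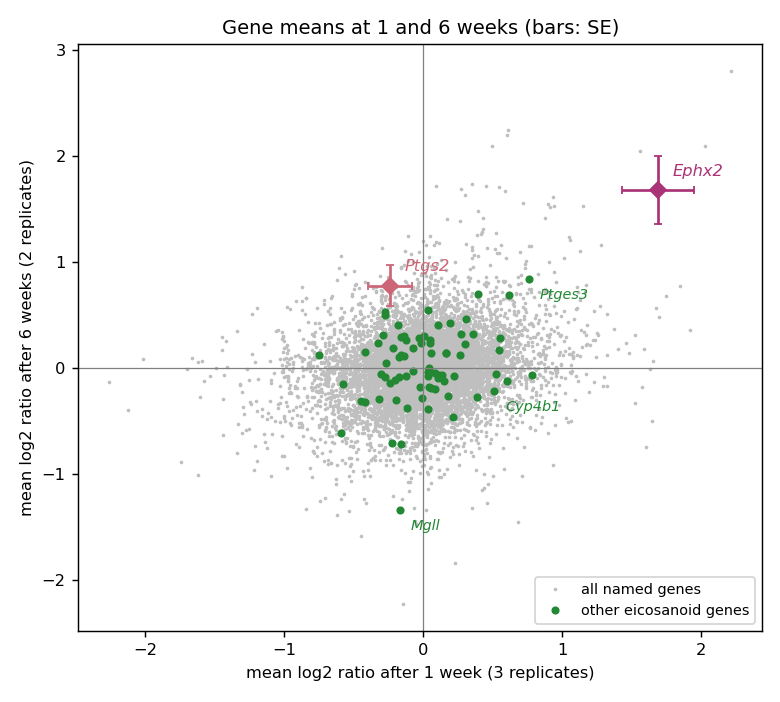
Mean log2 ratio of each named gene after 1 week (horizontal, 3 replicates) and after 6 weeks (vertical, 2 replicates), with all named genes in grey, the other measured eicosanoid genes in green and Ephx2 and Ptgs2 as diamonds with SE bars. Ephx2 lies far to the upper right at 1.69 and 1.68, and Ptgs2 lies above the centre at -0.24 and 0.78.

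Ptgs2 is known for a promoter that takes up many inducing signals, so the 250 bases before its RefSeq start are shown. They lie at chr1:150099781-150100030 on the plus strand of GRCm38.p6. Capitals mark GGGCGG (a GC box), GCGTG (the core bound by the aryl hydrocarbon receptor) and TTGCGCAA (a C/EBP site), each found once on either strand, with no overlap between them.
Ptgs2: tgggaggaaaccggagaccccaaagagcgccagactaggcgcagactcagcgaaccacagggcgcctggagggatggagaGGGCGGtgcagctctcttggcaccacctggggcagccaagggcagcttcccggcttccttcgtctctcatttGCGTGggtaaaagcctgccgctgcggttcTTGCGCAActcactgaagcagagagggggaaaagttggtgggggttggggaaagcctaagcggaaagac
Of 32536 different RefSeq windows of this length, 0.166% held TTGCGCAA, 28.3% held GCGTG and 33.0% held GGGCGG. A loose NF-kB pattern occurred once and is held by 46.0% of windows. The TATA box TATAAA, the E-box CACGTG, the CRE core TGACG, and the KLF core CACCC were not in these letters. In the 50 bases after the start, a window added after the first search, TGACG and CACGTG overlapped at bases 14 to 18 and 17 to 22, and 3.51% and 1.09% of such windows held them. A match is a description of letters, and these arrays hold no binding data. The promoter of Ephx2 is not shown.

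By limma, with Benjamini-Hochberg adjustment over 19242 tests, no feature had an adjusted p under 0.05 at 1 week (0%), at 6 weeks (0%) or in their difference (0%). The smallest adjusted p of limma was 0.178, 0.556 and 0.951. At an unadjusted p under 0.05 there were 1280 features at 1 week (6.65%), 792 at 6 weeks (4.12%) and 684 in the difference (3.55%). Split by sign, 3.53% were positive and 3.12% negative at 1 week, 2.18% and 1.94% at 6 weeks, and 1.72% and 1.83% in the difference. Robust limma also gave 0 in all 3, and the test without variance moderation gave 0, 5 and 5. The genes of the surrounding pathway are therefore described by their values, and none of those named next passed.

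On the epoxide side, Ephx1, the microsomal epoxide hydrolase, was near 0, at 0.14, 0.14 and 0.04 at 1 week and -0.24, -0.65 and 0.26 at 6 weeks, in the array order used above. It was the only other epoxide hydrolase measured of those listed. The arachidonate cytochromes P450, which make the epoxides that Ephx2 consumes or hydroxylate the fatty acid's end, had 21 of 36 listed genes measured. At 1 week 11 were positive and 10 negative with a median of 0.03, and at 6 weeks 6 were positive and 15 negative with a median of -0.11. Over all features tested the median was 0 at either time, with 9542 positive and 9570 negative at 1 week and 9431 and 9367 at 6 weeks.

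At an unadjusted p under 0.05, 2 of the P450 genes were positive at 1 week, 1 was positive at 6 weeks, and 2 were negative in the difference. The shares over all features were 3.53%, 2.18% and 1.83%. Cyp2j9, an epoxygenase of the Cyp2j family, was at 0.59, 0.52 and 0.47 at 1 week and at 0.07, -0.33 and 0.01 at 6 weeks. Cyp4b1, a fatty acid hydroxylase, was at 0.60, 0.56 and 0.37 at 1 week and at -0.54, -0.01 and -0.15 at 6 weeks. Both had 1-week arrays above all 6-week arrays, with differences of -0.58 ± 0.23 and -0.72 ± 0.24 and an adjusted p of 0.951 by limma. Cyp4f18, which hydroxylates leukotriene B4, was at -0.01, -0.08 and 0.19 at 1 week and at 0.79, 0.32 and 0.54 at 6 weeks. Cyp2j6 had a mean of 0.08 ± 0.25 at 1 week and -0.20 ± 0.31 at 6 weeks, with spots that differed by up to 2.31.

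On the prostanoid side, cytosolic phospholipase A2, encoded by Pla2g4a, frees arachidonic acid and is the nearest measured gene to Ptgs2 on the lower-coordinate side of chromosome 1. Pla2g4a was at -0.08, -0.26 and -0.08 at 1 week and at 0.24, 0.25 and 0.36 at 6 weeks. Its arrays thus had the signs of Ptgs2 at each time, at smaller sizes, and the difference was 0.44 ± 0.23 with an adjusted p of 0.951 by limma. The spots of Pla2g4a differed by up to 0.97, more than that difference. Pla2g2a, a secreted phospholipase, was at -0.11, -0.12 and -0.26 at 1 week and at -0.90, -0.74 and -0.61 at 6 weeks, although its spots differed by up to 1.95. Mgll, which splits the monoglyceride that carries arachidonic acid, was at -0.24, -0.14 and -0.11 at 1 week and at -1.08, -1.51 and -1.38 at 6 weeks. Its 6-week mean was -1.34 ± 0.18 with an adjusted p of 0.711 by limma; among the 5625 genes whose spots were less than 1 log2 unit apart on every array it was 1 of 12 that passed at 6 weeks.

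The release and acylation list had 18 of 27 genes measured, with 6 positive and 12 negative at 1 week and 13 positive and 5 negative at 6 weeks. All features tested were split nearly evenly by sign at either time. The medians of the list were -0.12 and 0.25. At an unadjusted p under 0.05 none of them was past the threshold at 1 week, and 2 were at 6 weeks, both negative: Mgll and Pla2g2a. Of all features, 6.65% were past it at 1 week, and 1.94% were past it and negative at 6 weeks.

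Of the cyclooxygenases and prostanoid synthases, 11 of 14 were measured, Ptgs2 among them, and Ptgs1 was not among the named genes. The list had 6 positive and 5 negative genes at 1 week and 4 positive and 7 negative at 6 weeks, with medians of 0.04 and -0.04. Ptges3, a cytosolic prostaglandin E synthase also known as the Hsp90 partner p23, was at 0.93, 0.51 and 0.84 at 1 week and at 1.38, 0.76 and 0.62 at 6 weeks. It was positive on all 6 arrays, as were 2.21% of all features. Ptges, the inducible microsomal prostaglandin E synthase that often works with cyclooxygenase-2, was near 0, with means of 0.09 ± 0.18 and -0.05 ± 0.22. Ptgds, a prostaglandin D synthase, was at 0.62, 0.67 and 0.37 at 1 week and at 0.09, 0.16 and 0.44 at 6 weeks.

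Ptgis, which makes prostacyclin, was at -1.61, -0.12 and 0.00 at 1 week, and its mean of -0.58 ± 0.35 became -0.06 without the dye reversal. The spots of Ptgis differed by up to 2.72. At 6 weeks Ptgis had a mean of -0.15 ± 0.43. Tbxas1, which makes thromboxane, stayed within 0.14 of 0 on all 6 arrays. Ptgir, the prostacyclin receptor, had means of 0.19 ± 0.21 and 0.42 ± 0.25. The 9 measured of 10 prostanoid receptors had medians of 0.17 and 0.12, with none at an unadjusted p under 0.05 at either time. The 4 measured of 7 transport and breakdown genes had medians of 0.10 and 0.16.

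**Figure D4:**
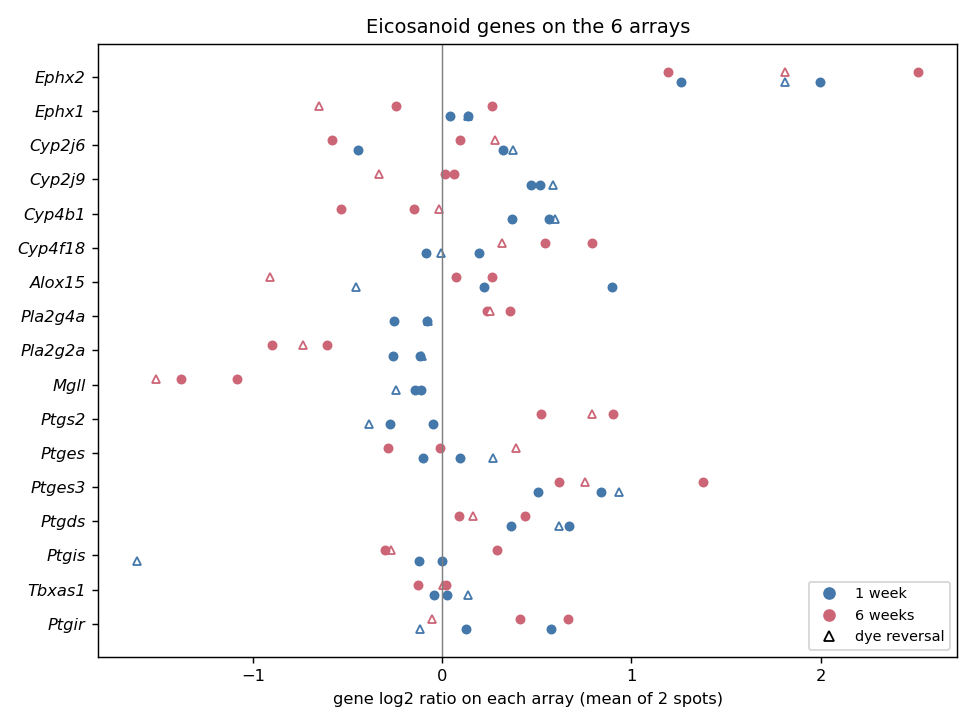
Gene log2 ratio (mean of 2 spots) on each array for 17 eicosanoid genes, with blue for 1 week, red for 6 weeks and open triangles for the dye-reversed arrays. Ephx2 is the only gene shown with all 6 values above 1, Mgll has its 6-week values below -1, and the Ptgs2 values at 6 weeks lie to the right of those at 1 week.

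The lipoxygenase and leukotriene genes, 14 measured of 20, had medians of -0.04 at 1 week and -0.0037 at 6 weeks, and none reached an unadjusted p under 0.05 at either time. Alox15, which oxygenates arachidonic and linoleic acid, ranged from -0.46 to 0.90 at 1 week and from -0.91 to 0.26 at 6 weeks, so its arrays disagreed in sign at both times. Alox5 and Cyp2c44 were not among the named genes.

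Genes that control the Ptgs2 transcript were taken as a list of 28, of which 26 were measured. Its medians were -0.06 at 1 week and 0.03 at 6 weeks. Dusp1, a phosphatase that restrains the kinases inducing Ptgs2, was at -0.34, -0.39 and 0.25 at 1 week and at 1.84, 0.42 and 0.77 at 6 weeks, with no overlap. The spots of Dusp1 differed by up to 0.87. Cebpb, a transcription factor of the C/EBP family, was at -0.89, -0.15 and -0.69 at 1 week and at 0.40, -0.14 and -0.39 at 6 weeks, with spots up to 2.17 apart. Celf2, an RNA-binding protein that holds back translation of the Ptgs2 transcript, was at 1.04, 0.31 and 0.88 at 1 week and at 0.32, -0.25 and 0.10 at 6 weeks. Il1b, a cytokine that induces Ptgs2, lay between -0.20 and 0.09 on all arrays but the 6-week dye reversal, where it stood at 0.95. The 4 spots of Il1b differed by up to 2.94.

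Genes of the peroxisome and of PPAR alpha, a fatty acid receptor that is known to raise Ephx2 in liver, had medians near 0. Of 17 measured of 23, 5 were positive and 12 negative at 1 week and 7 positive and 10 negative at 6 weeks, with medians of -0.04 and -0.05. Cpt1a, which brings fatty acids into mitochondria, was positive on all 6 arrays, with means of 0.52 ± 0.17 and 0.35 ± 0.21. On the 6-week dye reversal it was barely above 0, at 0.0069. Acadm, a mitochondrial acyl-CoA dehydrogenase, had means of 0.64 ± 0.20 and -0.37 ± 0.24.

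The genes most like Ephx2 over the 6 arrays, by root mean square distance among the 5625 genes with agreeing spots, were Coch (0.54), Calcrl (0.60), Gm4788 (0.67), Tsc22d3 (0.67) and Fhl1 (0.73), against a median distance of 1.86. Coch, a secreted matrix protein, ranged from 1.34 to 2.57, and Calcrl, the adrenomedullin receptor, from 1.00 to 1.94. The genes most like Ptgs2 were Wbp4 (0.19), Scd2 (0.20), Lrg1 (0.21), Pabpc1 (0.21) and Phax (0.22), against a median of 0.68. Scd2 desaturates fatty acids, and its mean was -0.13 at 1 week and 0.82 at 6 weeks. The mean of Lrg1, a secreted glycoprotein of activated vessels, was -0.15 and 0.67.

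Ephx2 lies on chromosome 14. Of the 5 nearest measured genes on each side, Clu and Esco2 were also positive on all 6 arrays, as were 2.21% of all features. Clu, a secreted chaperone, was at 1.12, 0.84 and 0.83 at 1 week and at 1.51, 1.11 and 1.93 at 6 weeks. Esco2, which joins sister chromatids, was lower, with means of 0.18 ± 0.19 and 0.36 ± 0.23. It was barely above 0 on 1-week replicate 2 (0.0087) and on the 6-week array against 1-week control (0.0068), and its spots differed by up to 1.46. Adam2, which lies between Clu and Ephx2 among the measured genes, had means of -0.23 ± 0.19 and 0.28 ± 0.23, and Trim35 on the other side had means of -0.22 ± 0.42 and -0.26 ± 0.52. For the 10 neighbours of Ptgs2, Pla2g4a included, means ran from -0.57 to 0.06 at 1 week and from -0.31 to 0.53 at 6 weeks. Ptgs2 itself had means of -0.24 and 0.78. Rgs2, an inhibitor of G protein signalling, had means of -0.01 ± 0.18 and -0.06 ± 0.22.

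Hepatocyte markers, from a tissue where Ephx2 is abundant, had higher medians at 6 weeks. Over the 10 measured of 15, the medians of the arrays ran from 0.01 to 0.21 at 1 week and from 0.51 to 0.75 at 6 weeks, and 9 of 10 gene means were positive at 6 weeks. At an unadjusted p under 0.05 by limma, 2 of the 10, Ahsg (0.94) and Serpina1c (0.50), were positive at 1 week, beside 3.53% of all features. At 6 weeks 4 of the 10 were positive, beside 2.18%. These 4 were Serpina1c, Serpina1b, Ahsg and Serpina1d, genes of secreted liver proteins. Their 6-week means were 2.09 ± 0.21, 1.71 ± 0.26, 1.53 ± 0.21 and 1.11 ± 0.36. None passed after adjustment. Their spots differed by up to 0.26, 1.33, 0.65 and 2.65, in the same order. Serpina1b, Serpina1c, Serpina1d and the also listed Serpina1a (0.95 ± 0.64) are of 1 gene family, so they may not be separate markers. The 6-week means of Apoa1, Apoa2, Ttr and Cyp2e1 were smaller, at 0.39, 0.17, 0.13 and 0.13. The 1 marker with a negative 6-week mean was Alb, which encodes albumin and was at 0.15, 0.23 and -0.20 at 1 week and at -0.08, -1.30 and -0.14 at 6 weeks. The kidney tubule list, 9 of 9 measured, had array medians from 0.01 to 0.17 at 1 week and from -0.15 to -0.03 at 6 weeks. Smooth muscle and pericyte markers, 7 of 8 measured, ran from -0.21 to 0.24 and from -0.03 to 0.51, and leukocyte markers, 13 of 14 measured, from -0.25 to -0.05 and from -0.25 to -0.08. Of the 7, only Acta2 (1.14 ± 0.26) had an unadjusted p under 0.05 by limma at 6 weeks, beside 2.18% of all features positive. Of the 13, only Lyz2 did, at -0.58 at both times, beside 3.12% negative at 1 week and 1.94% at 6 weeks. The spots of Lyz2 differed by up to 1.62. Endothelial markers, 15 of 18 measured, ran from -0.20 to -0.17 at 1 week and from -0.48 to 0.01 at 6 weeks. At an unadjusted p under 0.05 by limma, 4 of the 15 were negative and 1 positive at 1 week, beside 3.12% and 3.53% of all features. At 6 weeks 1 was negative and 0 were positive, beside 1.94% and 2.18%. Fibroblast markers, 8 of 9 measured, ran from -0.59 to -0.17 and from -0.20 to -0.12. Of these 8, 3 were negative and 0 positive at that threshold at 1 week, and 0 were past it at 6 weeks. The part of these cell types in the Ephx2 and Ptgs2 ratios was not tested.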

How the data were processed

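The authors deposited 1 log2 ratio per spot and array; scanner, background correction, normalization, filter, dyes and direction are not given in the sources used here. From the values, 100% (99.99% on 1-week replicate 2) are folds in whole hundredths, within 0.02 of a hundredth. A probe table named 24344 spots with 1 symbol, checked by Entrez identifier against RefSeq genes of GRCm38.p6. Each array was centred on its median and spots of a gene were averaged. Signs were kept as deposited; earlier work on these arrays turned the 6-week dye reversal on a correlation near 0, and that is an alternative here. The 6-week dye swap was averaged, leaving 5 replicates. A linear model with 1 coefficient per exposure time and empirical Bayes moderation (limma 3.58.1, R 4.3.3) was fitted to 19242 features, with two-sided tests (3 residual and 2.39 prior degrees of freedom). The code was tested on simulated data. The members, lists and alternatives were chosen with earlier results of these data known. Listed genes are named where an unadjusted p was under 0.05 in any contrast, with a fixed set of enzymes whatever their values; Il1b, Alb, Serpina1b, Serpina1c, Serpina1d, Ahsg, Clu, Esco2, Adam2, Trim35, Rgs2, Scd2, Lrg1, Coch and Calcrl were picked for the text from the lists, neighbours and most similar genes after their values were seen. Serpina1a, Apoa1, Apoa2, Ttr, Cyp2e1, Acta2 and Lyz2 were added in the same way. Protein sequences were not used here.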

Additional observations from a re-analysis of the deposited data

Results flagged for a closer look

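Ptgs2, Cyp4b1 and Pla2g4a stood out because every 1-week array had one sign and every 6-week array the opposite sign, among 22 genes checked. Many of the 22, Cyp4b1 included, had been named for an unadjusted p under 0.05 by limma, and Ephx2 and Ptgs2 were picked on their values. How many of the 22 had the pattern is therefore not read as a result. For Ptgs2 the difference of 6 weeks minus 1 week was 1.02 (likely higher at 6 weeks), and it was not tested because the gene had been picked on these values. For Cyp4b1 the difference was -0.72 and for Pla2g4a it was 0.44, each with an adjusted p of 0.951 by limma. The spots of Pla2g4a differed by up to 0.97. Of all features tested, 0.847% were negative on every 1-week and positive on every 6-week array. The share with the opposite pattern, that of Cyp4b1, was not counted.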

How the results depend on the processing

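The number of features that passed was 0 in each contrast and under every alternative but these: among genes with agreeing spots 102 passed at 1 week and 12 at 6 weeks, and without variance moderation 5 passed at 6 weeks and 5 in the difference. Leaving out each array in turn gave 0 throughout. With the 6-week dye reversal turned, the Ephx2 mean was 0.77 at 6 weeks and its difference -0.92, and the Ptgs2 mean was 0.38 and its difference 0.62. With both reversals turned, Ephx2 stood at 0.48, 0.77 and 0.29 (1 week, 6 weeks, difference) and Ptgs2 at 0.021, 0.38 and 0.36. The Ephx2 difference of -0.01 also became positive with only the 4 unreversed arrays (0.23), with the dye swap kept as 2 replicates (0.15), with quantile normalization (0.31), for the spot with the higher value (0.66) and with folds of exactly 1.00 as missing (0.59). Leaving out each array in turn moved that difference between -0.22 and 0.47; it was positive without 1-week replicate 1 (0.05), 1-week replicate 3 (0.14), the 6-week dye reversal (0.17) or the array against 6-week control (0.47). The cause was not tested for any of these. The other 92 values of Ephx2 and Ptgs2 kept their sign and moved by less than the spread between replicates. For Ephx2 at 6 weeks that spread was wide, an SD of 0.69 over 2 replicates. Its single-spot means of 1.07 and 2.29, beside 1.68, therefore count among the 92, which is a loose standard. Ephx2 has no value among genes with agreeing spots. No paired analysis was possible because the labels carry no replicate numbers. With ratios alone, how far spots lay above background is unknown.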
